A study of Mus musculus with 4 samples.

Results

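The genes described here are Dppa2, Dppa3, Dppa4 and Dppa5a, named as developmental pluripotency associated, with Ooep and Tcl1, which are expressed in the same early stages. The set is defined by gene name, with no cut on measured values, and was matched to the deposited count table by Entrez gene number. All 6 were found among its 24116 genes, and all 6 passed the filter on low counts that left 14194 genes for testing. RNA was sequenced from mouse embryonic stem cells grown on gelatin in serum medium with LIF, the cytokine that keeps them undifferentiated. Wild-type cells gave 2 libraries, and cells whose titles read Kdm2a knockout gave another 2. The strain label of all 4 is 12910la. Kdm2a encodes a histone demethylase that binds unmethylated CG dinucleotides through a CXXC zinc finger. The knockout line was grown from a single clone after transfection of a Kdm2a guide RNA and sorting for GFP, so a property of that clone and the genotype cannot be told apart. The genotype label of the same libraries says knocked down instead.

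Total counts lay between 18844246 and 19056529 per library. Kdm2a RNA was not lower under the knockout label, with 2899 and 3554 counts in wild type against 3710 and 4753, so the directions below rest on the labels. The library labelled knockout 2 stood apart: its correlations across genes with the other 3 were 0.938 to 0.959, against 0.968 to 0.984 among those 3. Knockout 1 correlated at 0.984 with wild type 1 and at 0.978 with wild type 2, above the 0.968 between the wild-type libraries. The labels do not state whether replicate libraries are separate cultures, and the p-values below therefore reflect a spread that could be technical. Embryonic stem cell markers were present in all 4 libraries, 8 of 8 of them with counts, at a summed 5193 to 6058 CPM (counts scaled to the library total by TMM). Of the fibroblast markers, Lum was at 0 and the list summed to 37.3 and 89.5 CPM in wild type and 29.9 and 62.9 CPM under the knockout label. Primitive endoderm markers, with Afp at 0, summed to 6.59 to 18.0 CPM and trophoblast markers to 45.2 to 109 CPM over the 4 libraries. Markers of formative or primed epiblast, with Cer1 at 0, summed to 223 to 356 CPM. The filter kept 3 of 8 fibroblast, 5 of 8 primitive endoderm, 6 of 8 trophoblast and 5 of 8 epiblast markers. The most abundant were Thy1, Gata4, Tfap2c and Dnmt3b in that order, and Dnmt3b alone gave 144 to 174 CPM. Fgf5 (epiblast) and Foxa2 (primitive endoderm) had 0 or 1 counts in each library but knockout 2, which had 43 and 59.

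As background, DPPA2 and DPPA4 are DNA-binding proteins with SAP domains. They form a pair on chromatin, bind CG-rich promoters and stand upstream of Dux and the 2-cell genes. DPPA3, also called Stella or PGC7, is a maternal factor that protects the zygotic genome from loss of methylation and binds UHRF1, the partner of the maintenance methyltransferase DNMT1. DPPA5A, also called ESG1, and OOEP, also called FLOPED, belong to a family of KH-domain proteins. OOEP is a subunit of the subcortical maternal complex, which oocytes lay down for the first cleavages. TCL1 binds the kinase AKT and promotes its activation, and its gene is a target of pluripotency factors in embryonic stem cells.

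Promoter sequences were matched for 2 of the 6 genes, Ooep and Tcl1. They are shown because Ooep had the lowest p-value of the 6 and lay lower in both libraries labelled knockout, whereas the groups overlapped for Tcl1. Both run 5′ to 3′ from 250 bases before to 50 bases after the RefSeq start, on the minus strand of GRCm38.p6 (RefSeq). Capitals mark the CG dinucleotides.
Ooep, chr9:78378539-78378838: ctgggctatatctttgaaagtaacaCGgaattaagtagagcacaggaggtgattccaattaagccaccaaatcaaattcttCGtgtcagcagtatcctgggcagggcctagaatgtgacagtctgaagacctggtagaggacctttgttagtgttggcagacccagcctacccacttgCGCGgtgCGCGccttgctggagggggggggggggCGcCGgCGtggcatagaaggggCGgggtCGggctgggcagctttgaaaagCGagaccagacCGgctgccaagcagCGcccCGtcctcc
Tcl1, chr12:105222688-105222987: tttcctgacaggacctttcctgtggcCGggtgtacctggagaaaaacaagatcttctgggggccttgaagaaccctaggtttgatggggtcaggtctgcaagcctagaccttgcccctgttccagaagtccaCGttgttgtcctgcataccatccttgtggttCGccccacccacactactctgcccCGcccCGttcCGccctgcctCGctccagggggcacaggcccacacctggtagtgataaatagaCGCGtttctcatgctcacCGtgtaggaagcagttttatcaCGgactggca
The Ooep window held 15 CG and the Tcl1 window 11, against a median of 7 over 32851 RefSeq promoter windows of the same length. Fewer CG were found in 65.4% of those windows than in Ooep and in 58.6% than in Tcl1, so both lay above the middle of the range and neither was extreme. Neither window held the octamer ATGCAAAT, present in 1.74% of windows, nor TATAAA, present in 13.6%, on either strand. The E-box letters CANNTG occurred once in each, and in 72.3% of windows. These matches describe letters, not bound sites.

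None of the 6 genes passed the test between the groups. The edgeR quasi-likelihood test, adjusted by Benjamini-Hochberg over all 14194 genes, called 0 of 6 (0% of all tested genes were called), and adjusted p was 1.00 for each. DESeq2 also called 0 of 6 (0.0141% of all genes), as did the edgeR likelihood ratio test (0.0282%) and limma-voom (0%). At an unadjusted p under 0.05 by the quasi-likelihood test stood 1 of 6, Ooep, against 1.7% of all genes in either direction (0.817% lower and 0.888% higher). The groups did not overlap for 2 of 6, Ooep and Dppa3, both lower under the knockout label (12.7% of all genes), and 0 of 6 were higher without overlap (11.7%). Fold changes were negative for 3 and positive for 3, with a median log2 fold change of -0.11, while all tested genes had a median of 0.0029 and 7022 negative values.

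**Figure D1:**
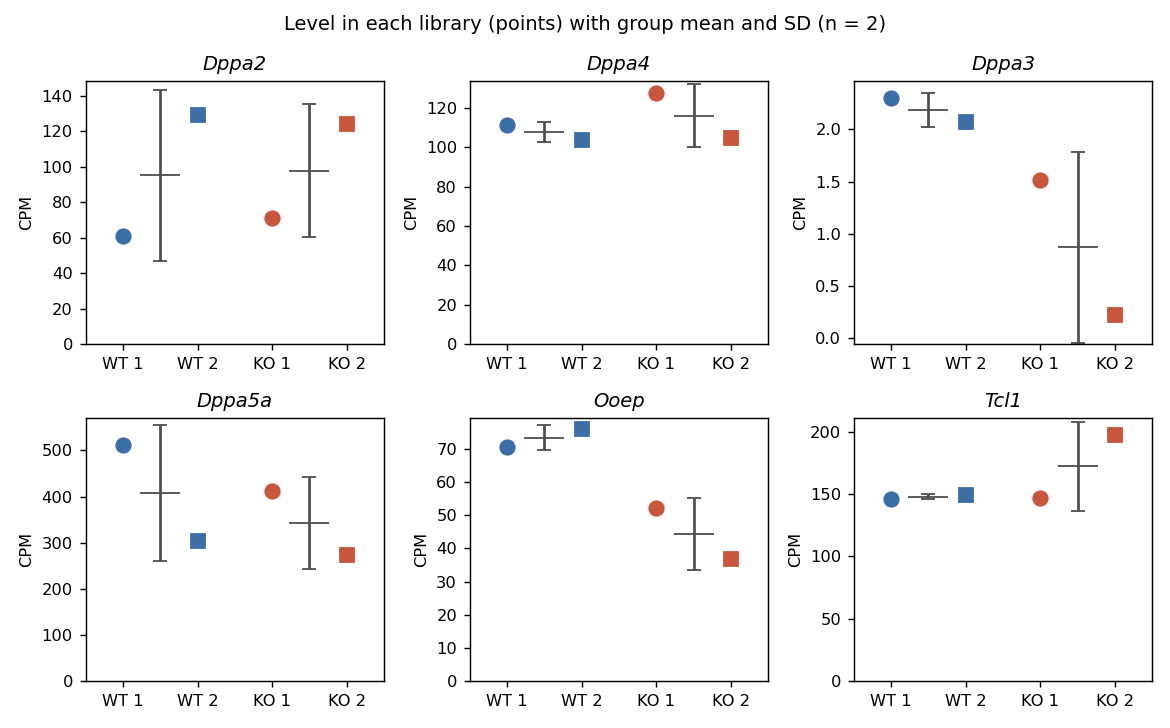
Level of each gene in CPM (vertical axes, linear) in the wild-type (WT) and knockout-labelled (KO) libraries. Points are libraries, and bars are the group mean with its SD (n = 2). Ooep and Dppa3 lie lower in both KO libraries, while Dppa2 and Dppa5a differ more between libraries within each label than between labels. Dppa4 and Tcl1 do so within the KO label only.

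Ooep was the gene whose groups stood furthest apart relative to their spread. It is Entrez gene 67968, on chromosome 9 from 78376903 to 78378588 (GRCm38.p6, as for all positions here). Wild type gave 1353 and 1468 counts, knockout 1 gave 996 and knockout 2 gave 668, which is 70.7 and 76.1 CPM against 52.0 and 36.7 CPM. Both libraries labelled knockout lay below both wild-type libraries, and knockout 2 was the lowest. The mean was 73.4 ± 3.83 CPM in wild type and 44.4 ± 10.8 CPM under the knockout label (SD, n = 2 each). On the log2 scale the fold change was -0.73 (SE 0.27), or 60.5% of wild type, with unadjusted p = 0.0291 and adjusted p = 1.00 by the edgeR quasi-likelihood test. That p-value ranked 103 of 14194 genes. Against both wild-type libraries together, knockout 1 stood at 70.9% (95% exact interval 65.9 to 76.2) and knockout 2 at 50.0% (45.9 to 54.4). These intervals cover counting error only and leave out variation between libraries. If PCR copies were counted as separate reads, the intervals are too narrow even for that. In bulk RNA, fewer cells with the transcript and less RNA per cell cannot be told apart.

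Other parts of the OOEP complex were present in these cells in part. Of 10 genes of the subcortical maternal complex and its oocyte partners, 8 had a count and 6 were tested, while Nlrp2 and Zar1 had none and Nlrp5, which encodes the subunit MATER, had 1 count in all. None passed the test (adjusted p = 1.00 for each). The tested genes had 4 negative and 2 positive fold changes and a median of -0.42. The summed level of the list was 96.4 and 104.2 CPM in wild type against 87.9 in knockout 1 and 104.9 in knockout 2. By the sum, knockout 2 was thus not lower. The 4 negative ones lay lower without overlap (12.7% of all tested genes), and 0 lay higher without overlap (11.7%).
Khdc3, which encodes the complex subunit FILIA and is a KH-domain relative of Ooep, was the most abundant. Its counts were 897 and 1068 in wild type and 852 and 506 under the knockout label, or 46.9 and 55.4 CPM against 44.5 and 27.8 CPM. Its 2 groups were separated by a narrow margin, with knockout 1 close to wild type 1 and only knockout 2 well below. The log2 fold change of Khdc3 was -0.50 (SE 0.31), and the ratio of Ooep to Khdc3 per kilobase of exon was 1.12 to 1.45 over the libraries.
Padi6, an oocyte protein of the cytoplasmic lattices, had 13 and 13 counts against 3 and 7. Nlrp14, an oocyte NLR protein, had 63 and 76 against 48 and 26. Tle6, a core subunit, had 255 and 202 against 175 and 175, and is named because it completes the 4, not by the rule for named genes.
Nlrp4f and Zbed3, also associated with the complex, went the other way, through knockout 2 alone. Nlrp4f had 101 and 134 counts against 84 and 243. Zbed3 had 511 and 514 counts against 507 and 947.

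**Figure D2:**
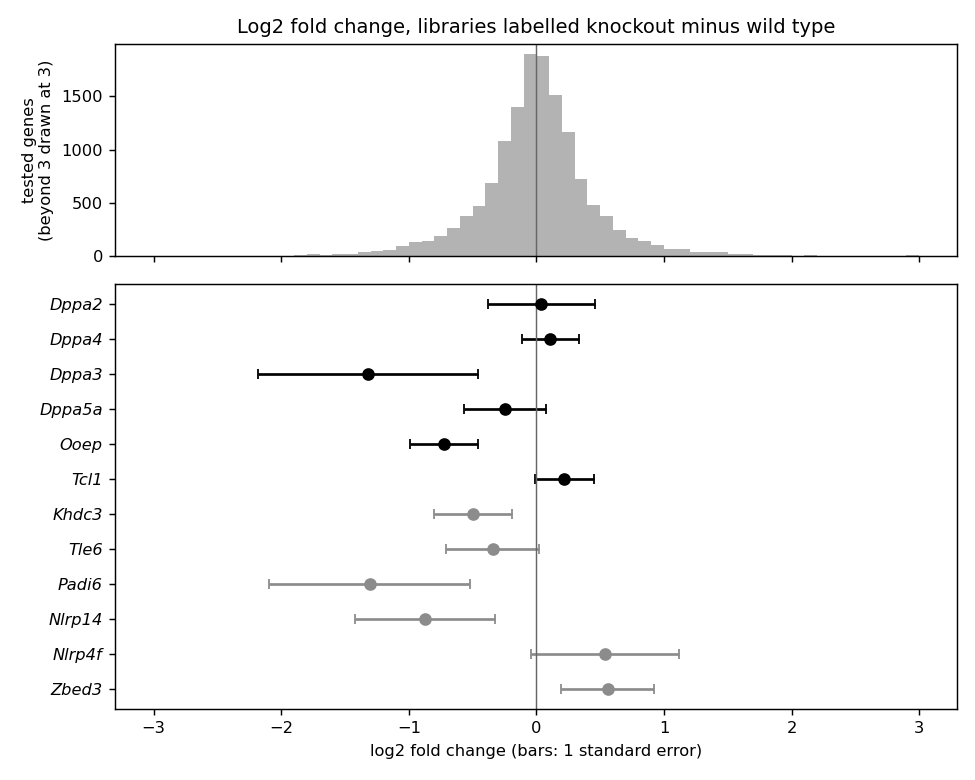
Upper panel: distribution of log2 fold changes (libraries labelled knockout minus wild type) over the 14194 tested genes, with values beyond 3 drawn at 3. Lower panel: the 6 genes (black) and the tested genes of the OOEP complex (grey) with 1 standard error. Ooep at -0.73 and Dppa3 at -1.32 are the lowest of the 6, and Dppa3 has the widest error.

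Dppa3 was the least abundant of the 6 genes. This gene (Entrez 73708, chromosome 6, 122626424 to 122630271) had 44 and 40 counts in wild type, 29 in knockout 1 and 4 in knockout 2, or 2.30 and 2.07 CPM against 1.52 and 0.22 CPM. Knockout 1 lay not far below wild type, and most of the group difference came from knockout 2. The mean was 2.19 ± 0.16 CPM in wild type and 0.87 ± 0.92 CPM under the knockout label (SD, n = 2 each). Its log2 fold change was -1.32 (SE 0.86, unadjusted p = 0.170, adjusted p = 1.00 by the edgeR quasi-likelihood test). Knockout 1 stood at 69.3% of both wild-type libraries (95% exact interval 43.8 to 107), a range that includes 100%, and knockout 2 at 10.1% (2.68 to 26.7), counting error only. Without knockout 2 the log2 fold change was -0.52, and without knockout 1 it was -3.28, and neither passed (adjusted p = 1.00 and 0.182). In each of these fits the knockout arm is 1 library, so the spread comes from wild type alone and the lone library is assumed to vary like it.

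For the DNA methylation machinery around DPPA3, fold changes were small. Of 14 genes, all tested, 0 passed, 4 had negative and 10 positive fold changes, and the median was 0.06. The median turned to -0.037 without knockout 1 and was 0.13 without wild type 2. The groups did not overlap for 1 of the 14 (24.4% of all genes), Ehmt1, a histone H3 lysine 9 methyltransferase, which had 120 and 116 CPM against 121 and 145 CPM. Dnmt3l, the cofactor of the de novo methyltransferases, had 344 and 383 CPM against 324 and 575 CPM, high in knockout 2 alone. Tet3, the oxidase of the zygote, had 11.1 and 7.93 CPM against 10.0 and 13.7 CPM. Trim28, the most abundant, averaged 1943 ± 123 CPM and 2109 ± 207 CPM (SD, n = 2 each). Uhrf1, which is named for its link to DPPA3 and not by rule, averaged 503 ± 21.8 CPM and 522 ± 33.4 CPM.

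Markers of germ cells and of 2-cell-like cells also differed between the libraries in which Ooep and Dppa3 were low. Germ cell markers, 8 of 8 with counts, summed to 229 and 236 CPM in wild type against 132 in knockout 1 and 77.8 in knockout 2. Fold changes were negative for 5 of the 8 and positive for 3, and 0 passed. At an unadjusted p under 0.05 by the quasi-likelihood test stood 2 of 8, Sohlh2 and Dazl, both lower, against 1.7% of all genes. The germ cell list was proposed with earlier results of these data known. Its shares, here and in what follows, therefore cannot serve as evidence of an excess. The groups did not overlap for 4 of the 8 that were lower (12.7% of all tested genes) and for 1 that was higher (11.7%). The higher one was Nanos3, with 6 and 9 counts against 19 and 26 (log2 fold change 1.62, unadjusted p = 0.0515 by edgeR). The sum of the germ cell list followed the order of Ooep over the knockout-labelled libraries, but not every marker did. Sohlh2, the most abundant, had 95.5 and 114 CPM in wild type against 46.6 and 35.2 CPM. Sycp3 (7.79 and 13.5 CPM) and Nanos3 (0.99 and 1.43 CPM) rose from knockout 1 to knockout 2, while the other markers fell. The 2-cell genes, 21 of the 22 in the table with counts and Gm4340 at 0, summed to 29.5 and 62.5 CPM in wild type against 54.7 in knockout 1 and 15.8 in knockout 2. Knockout 2 was the lowest there, as for Dppa3, and wild type 1 the next. The part of germ-like or 2-cell-like cells in the levels of Ooep and Dppa3 was not tested.

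Dppa2 varied more between libraries of the same label than between the labels, and did so within each label. Its counts (Entrez 73703, chromosome 16, 48310274 to 48319513) were 1166 and 2493 in wild type and 1362 and 2260 under the knockout label, or 60.9 and 129 CPM against 71.2 and 124 CPM. The libraries numbered 1 were low and those numbered 2 high in both groups, and the groups overlapped. Between the groups its log2 fold change was 0.04 (SE 0.42, with an adjusted p of 1.00 by edgeR), and its sign turned with upper quartile scaling (-0.0052) and with library totals only (-0.018). Wild type 2 stood 2.12-fold above wild type 1, a difference reached by 4.69% of the 10778 genes whose mean was 5 CPM or more. Knockout 2 stood 1.75-fold above knockout 1, reached by 16.1% of them. Differences of at least 0.75 on the log2 scale with the same sign in both groups were found for 4.61% of these genes. On the log2 scale Dppa5a also varied more within each label than between the labels. Dppa3, Dppa4 and Tcl1 did so under the knockout label alone, and Ooep in neither.

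Dppa4, which lies 15981 bases from Dppa2 on the same strand and encodes its partner, was more even. Counts of Dppa4 (Entrez 73693, chromosome 16, 48283735 to 48294292) were 2129 and 2006 in wild type and 2439 and 1906 under the knockout label, or 111 and 104 CPM against 127 and 105 CPM. All 4 libraries lay close together, with knockout 1 the highest. It gave a log2 fold change of 0.11 (SE 0.22, with an adjusted p of 1.00 by edgeR), and -0.041 without knockout 1. Per kilobase of exon, the ratio of Dppa2 to Dppa4 RNA was 0.37 in wild type 1 and 0.38 in knockout 1, but 0.84 in wild type 2 and 0.81 in knockout 2. By these exon lengths Dppa2 stood below Dppa4 in every library, and by more in those numbered 1. The ratio depends on the annotated exon lengths and on sequence shared with pseudogenes. Whether the pair was unequal in the libraries numbered 2 is therefore not settled.

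**Figure D3:**
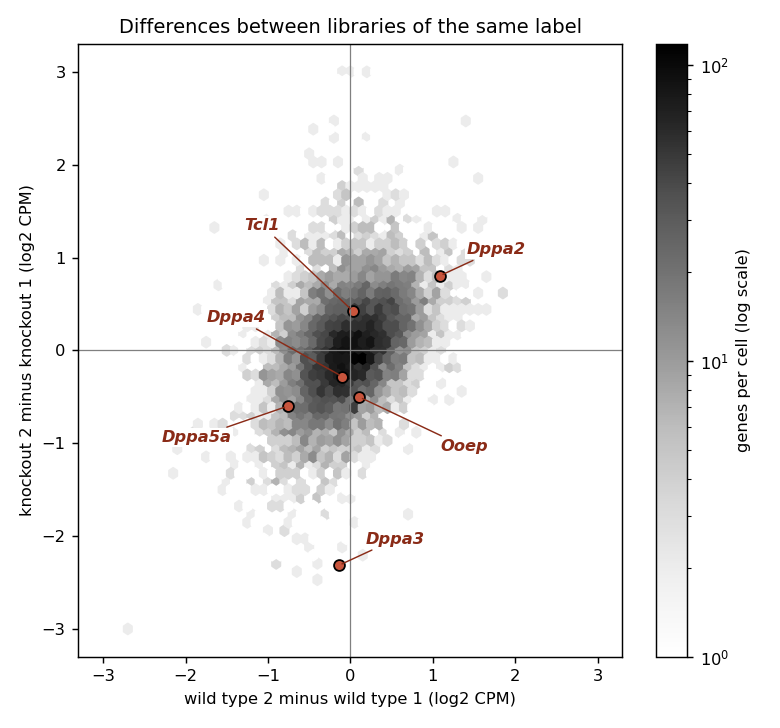
Difference between libraries of the same label in log2 CPM, wild type 2 minus 1 (horizontal) against knockout 2 minus 1 (vertical). Grey cells count the 10778 genes whose mean was 5 CPM or more (darker for more, log scale; values beyond 3 drawn at 3), and points are the 6 genes. Dppa2 is higher in libraries numbered 2 in both groups, Dppa5a lower, and Dppa3 differs widely between the knockout-labelled libraries only.

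The 2-cell genes downstream of DPPA2 and DPPA4 had another order over the libraries than Dppa2. Of 25 genes listed, 22 were in the table and 15 were tested, of which 0 passed. Fold changes were negative for 11 and positive for 4, with a median of -0.40, and the groups overlapped for all 15 (24.4% of all genes did not overlap). The median turned to 0.40 without knockout 2 and to 0.27 without wild type 2, and it was -0.85 without wild type 1 and -1.85 without knockout 1, so its sign rests on single libraries. The library medians, relative to the wild-type mean, were -0.47 and 0.47 in wild type, 0.40 in knockout 1 and -1.58 in knockout 2. Knockout 2, with a high Dppa2 level, was thus the lowest, and knockout 1, with a low Dppa2 level, was near wild type 2. Zscan4a, the most abundant, had 93 and 198 counts in wild type, 211 in knockout 1 and 37 in knockout 2. Zfp352, a zinc finger gene, had 11 and 18 against 13 and 2. Usp17la, a deubiquitinase gene, had 31 and 85 against 47 and 15, and Gm2022 had 25 and 112 against 26 and 42. Zscan4 and Usp17l genes have near-identical copies, so their separate counts are uncertain.

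Dppa5a was the most abundant of the 6 genes and also varied with the library number. Its counts (Entrez 434423, chromosome 9, 78367052 to 78368199) were 9800 and 5842 in wild type and 7906 and 4959 under the knockout label, or 512 and 303 CPM against 413 and 273 CPM. Libraries numbered 1 were high and those numbered 2 low, the reverse of Dppa2, and the groups overlapped. Between the groups it was at -0.25 on the log2 scale (SE 0.32, with an adjusted p of 1.00 by edgeR), and this turned to 0.18 without wild type 1 and to 0.03 without knockout 2. Differences of at least 0.5 on the log2 scale with the same sign in both groups were found for 11.6% of the 10778 genes. Ooep lies 8703 bases from Dppa5a on the same strand, but its wild-type libraries differed by 0.11 where those of Dppa5a differed by -0.76 (log2).

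Tcl1 was even across 3 of the 4 libraries. Its counts (Entrez 21432, chromosome 12, 105216753 to 105222737) were 2800 and 2882 in wild type and 2815 and 3587 under the knockout label, or 146 and 149 CPM against 147 and 197 CPM. Knockout 2 alone was higher, and knockout 1 lay between the wild-type libraries. Its mean was 148 ± 2.21 CPM in wild type and 172 ± 35.4 CPM under the knockout label (SD, n = 2 each), a log2 fold change of 0.22 (SE 0.23, with an adjusted p of 1.00 by edgeR). Without knockout 2 it was -0.0050.

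Genes of the AKT pathway, on which TCL1 acts, were all measured. Of 25 genes, all tested, 0 passed, 10 had negative and 15 positive fold changes, and the median was 0.07. The groups did not overlap for 3 genes that were lower and 2 that were higher, or 5 of 25, against 24.4% of all genes in either direction. Eras, which encodes a RAS protein of embryonic stem cells that activates PI3 kinase, had 31.8 and 24.7 CPM against 45.7 and 37.1 CPM, higher in both libraries labelled knockout (log2 fold change 0.55, SE 0.28). Tsc1, a brake on mTOR signalling, had 80.4 and 50.2 CPM against 74.6 and 121 CPM, high in knockout 2 and overlapping. Inpp5d, a lipid phosphatase and the most abundant of the list, had 293 and 156 CPM against 234 and 172 CPM.

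Relatives of the 6 genes had few or no counts, apart from Khdc3 and Mtcp1. Of 13 relatives listed, 11 were in the table, 5 had a count and 2 were tested, Khdc3 and Mtcp1. Dppa1, Khdc1a, Khdc1b, Khdc1c, Tcl1b1 and Tcl1b5 had 0 counts in every library, which allows up to 3 counts or 0.157 to 0.159 CPM per library. Tcl1b2, Tcl1b3 and Tcl1b4, neighbours of Tcl1 in the same cluster, had 1, 3 and 2 counts over all 4 libraries. Tcl1 was thus the only member of its chromosome 12 cluster, among those in the table, with more than 3 counts. Mtcp1, an X-linked relative of Tcl1, had 61 and 55 counts in wild type, 56 in knockout 1 and 40 in knockout 2.

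Levels between genes were compared per kilobase of exon, with exon lengths from GENCODE M21. Dppa5a led at a mean of 606 CPM per kilobase over the 4 libraries, above 99.8% of tested genes with a known length. Tcl1 followed at 86.7, Dppa4 at 67.3, Dppa2 at 39.4, Ooep at 27.5 and Dppa3 at 1.71, the last above 25.8% of tested genes. Dppa5a (440 to 827), Tcl1 (79.3 to 107), Dppa4 (62.6 to 76.7) and Dppa3 (0.25 to 2.58) did not overlap with their neighbours in this order in any library. Dppa2 (24.9 to 52.8) and Ooep (17.2 to 35.6) did overlap, and in wild type 1 Ooep was the higher of the 2. The exon length of Ooep, 2138 bases in GENCODE, exceeds its RefSeq span of 1686 bases, and with that span its mean level is 34.9, so the order of Ooep and Dppa2 is not settled.

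The 6 genes also differed in how far reads can be placed without doubt. Reads were 50 bases long per the labels, and every 50-base window of the GENCODE M21 transcripts of each gene was looked up in the transcripts of all other genes, on both strands. Windows found elsewhere made up 38.6% for Dppa5a, 31.3% for Dppa4, 29.1% for Dppa2 and 16.5% for Dppa3. The leading sources for Dppa2, Dppa3 and Dppa4 were processed pseudogenes, Gm9788, Dppa3-ps and Gm14058. For Dppa5a they included the transcribed pseudogene Gm15310 (74 windows), the protein-coding gene Pigp (70) and the copies Dppa5b and Dppa5c (57 each). For Ooep the share was 1.39%, and for Tcl1 it was 0%. Levels of the 4 Dppa genes therefore carry an uncertainty that those of Ooep and Tcl1 carry little of, since the handling of such reads is not given in the sources used here. None of the 6 genes overlapped another GENCODE gene on either strand.

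Genes around the 6 loci were compared to see whether neighbours moved with them. Of 24 genes, the 3 nearest with any count on each side of each locus (other than the 6 themselves), 17 were tested and 0 passed. Fold changes were negative for 6 and positive for 11, with a median of 0.08. The groups did not overlap for 1 that was lower, Ddx43, and for 2 that were higher, Nectin3 and Gsta4, or 3 of 17, against 24.4% of all genes. Ddx43, a helicase gene of germ cells 18.9 kb from Ooep, had 207 and 263 counts in wild type, 160 in knockout 1 and 125 in knockout 2. Its log2 fold change of -0.68 (SE 0.38, with an adjusted p of 1.00 by edgeR) was close to that of Ooep, and knockout 2 was the lowest for both. Gsta4, a glutathione transferase gene on the other side, had 254 and 251 CPM against 268 and 267 CPM, and Cgas, the cytosolic DNA sensor 53.6 kb beyond Ooep, had 33 and 71 counts against 45 and 15. Ddx43 and Ooep were thus both separated and lower, while the groups overlapped for Dppa5a, which lies between Gsta4 and Ooep.

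At the Dppa3 locus the genes went different ways in knockout 2. Apobec1, a cytidine deaminase gene 48.6 kb away, had 188 and 135 counts in wild type, 156 in knockout 1 and 31 in knockout 2, and was low in the same library as Dppa3. Gdf3, a TGF-beta family ligand gene 21.0 kb away, had 1161 and 1679 against 1315 and 2889, high in that library. Nanog, the pluripotency factor 81.1 kb away, had 7332 and 14682 against 10021 and 7938, with knockout 2 inside the wild-type range. Slc2a3, a glucose transporter gene, had 2082 and 1564 CPM against 1852 and 2093 CPM, and its groups overlapped. Around Dppa2, Morc1, an ATPase gene of transposon silencing in the germline 121.0 kb away, had 113 and 146 CPM against 87.7 and 181 CPM. Dzip3, a ubiquitin ligase gene 614.0 kb away, had 24.2 and 48.5 CPM against 31.7 and 45.3 CPM. Cip2a, 683.9 kb away, had 108 and 143 CPM against 121 and 153 CPM. Morc1, Dzip3 and Cip2a were all lower in the libraries numbered 1, as Dppa2 was. Of the 10778 genes whose mean was 5 CPM or more, 32.1% were higher in the libraries numbered 2 in both groups. Nectin3, an adhesion gene as far as 1922.6 kb from Dppa2, had 35.5 and 36.7 CPM against 40.3 and 58.1 CPM. Tunar, a noncoding RNA gene 119.8 kb from Tcl1, had 112 and 61 counts against 74 and 15.

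**Figure D4:**
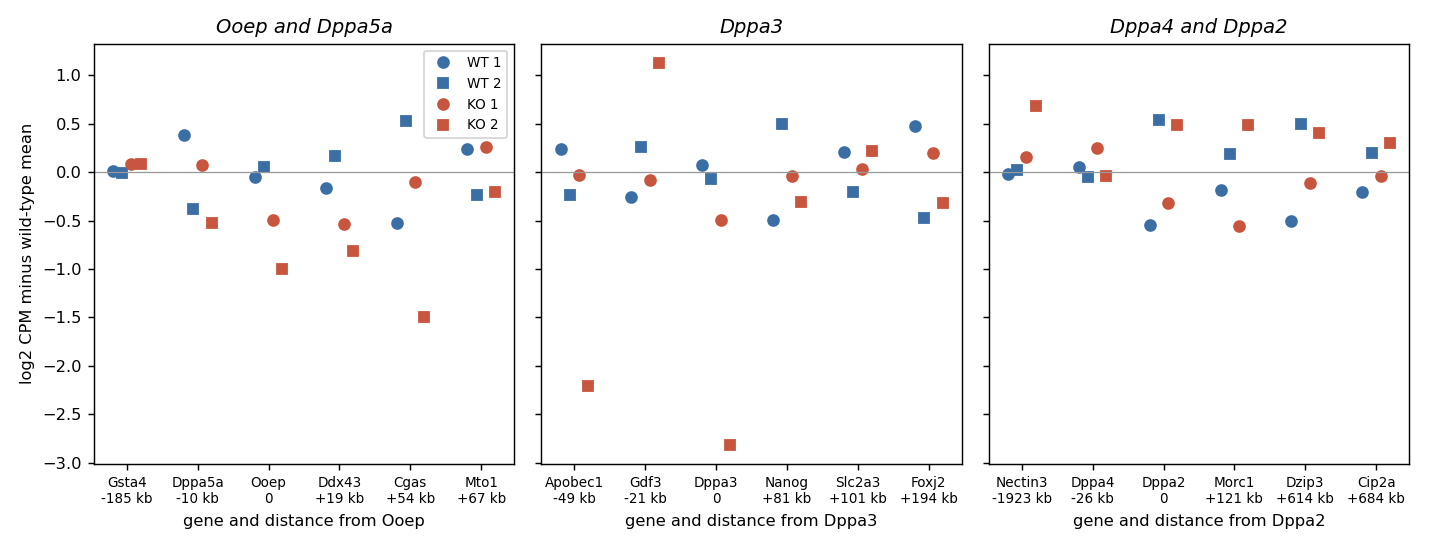
Log2 CPM of genes around Ooep and Dppa5a, Dppa3, and Dppa4 and Dppa2, relative to the wild-type mean of each gene, with the distance between gene starts. Blue is wild type, red is the knockout label, circles are libraries numbered 1 and squares those numbered 2. Ooep and Ddx43 lie lower in both red libraries. At the Dppa3 locus knockout 2 is the lowest for Dppa3 and Apobec1 and the highest for Gdf3. For Dppa3, knockout 1 also lies below wild type.

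Pluripotency transcription factors, of which OCT4, SOX2 and NANOG are the core, were described as a further list. Of 18 genes, all tested, 0 passed, 8 had negative and 10 positive fold changes, and the median was 0.08. The groups did not overlap for 2 that were lower and 3 that were higher, or 5 of 18, near the 24.4% of all genes. Leaving out 1 library turned the median to -0.033 (without wild type 1) or -0.036 (without knockout 2), or moved it to 0.25 (without wild type 2). Tbx3, a T-box factor of naive cells, had 284 and 262 CPM against 308 and 415 CPM. Tcf3, a separate gene from Tcf7l1 in the list, had 225 and 228 CPM against 213 and 176 CPM. Tcf7l1, named only to tell it from Tcf3, had 70.9 and 84.9 CPM against 64.5 and 109 CPM, and its groups overlapped. Sall4, a zinc finger partner of OCT4, had 313 and 393 CPM against 387 and 528 CPM and overlapped. Esrrb, the most abundant, averaged 991 ± 47.6 CPM and 1123 ± 22.1 CPM (SD, n = 2 each).

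**Figure D5:**
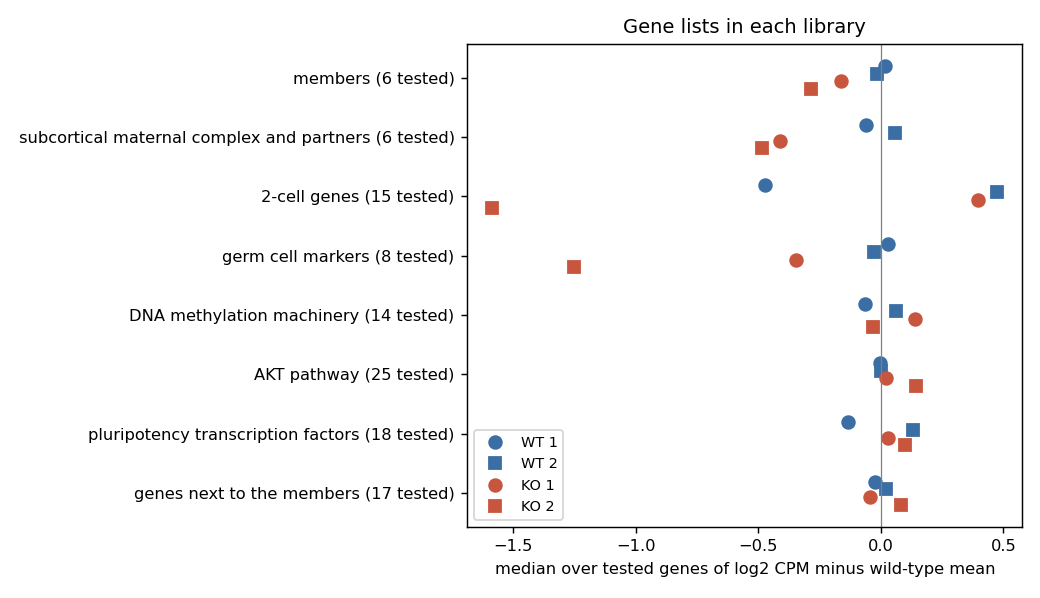
Median over the tested genes of each list of log2 CPM relative to the wild-type mean of each gene, in each library (symbols as labelled). The 2-cell genes are lowest in knockout 2 (-1.58). The median of the OOEP complex genes is low in both libraries labelled knockout (-0.41 and -0.48), though their summed level is not low in knockout 2. The AKT pathway and pluripotency lists lie between -0.13 and 0.14 in every library.

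The genes with the profile most like each of the 6 were sought among 10773 other genes whose mean was 5 CPM or more. Likeness was the Euclidean distance between log2 CPM values over the 4 libraries after centring each gene, so small distances are common with so few libraries. Nearest to Ooep were Dip2a, at a distance of 0.08, and Kdf1, at 0.14. Dip2a had 41.1 and 44.3 CPM in wild type against 31.1 and 22.8 CPM. Nearest to Dppa3 were Pttg1, which encodes securin, at 0.19, and Timp2, a metalloproteinase inhibitor gene, at 0.26. Pttg1 had 75.6 and 77.6 CPM against 56.3 and 12.3 CPM, a likeness that its choice by this profile fixes. Nearest to Dppa2 were Csrnp1 at 0.09 and Ccne2, a cyclin E gene, at 0.10. Nearest to Dppa5a were Arrdc2 and H2az2, both at 0.04. Mzt2 and Gmpr2 were nearest to Dppa4, at 0.02 and 0.03, and Zfp87 and Edem3 to Tcl1, at 0.02 and 0.03.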

How the data were processed

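The authors deposited a table of raw read counts per gene, named by Entrez gene number, for 4 RNA-seq libraries. The tools named in the submitters' processing notes are featureCounts and HISAT2, with build mm10. How multimapping reads were handled is not given in the sources used here, nor are the strand setting, annotation and versions. Of 24116 genes, 24061 were matched to a symbol in RefSeq GRCm38.p6, the assembly behind mm10. Groups and replicate numbers came from the sample titles.

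The main test was made with edgeR 4.0.16 (R 4.3.3): filterByExpr (14194 genes kept), TMM scaling, a quasi-likelihood F test of genotype alone, and Benjamini-Hochberg adjustment over all tested genes at 0.05. The SE is the absolute log2 fold change over the square root of F. Log2 CPM used a prior count of 2. DESeq2 1.42.0 and limma-voom (limma 3.58.1) were alternatives, and all tests were tried on simulated data. Chi-square values per degree of freedom between libraries were 29.6 to 98.7, so none was deposited more than once. Lists were described by counts and medians, with no set test. Named genes were the 6, the 3 lowest p-values and the most abundant gene of each list, any neighbour or relative with at least 1 CPM, and the 2 nearest profiles per gene; germ cell markers were named after their values were seen, and 1 gene that the rule names is not reported here. The rule takes the 6 genes by name, but they and the lists were proposed with earlier results of these data known, so the choice is not independent of them.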

Additional observations from a re-analysis of the deposited data

How the results depend on the processing

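With 2 libraries per group and 1 clone, a difference must be large to pass, and at 4 to 44 counts Dppa3 is limited by depth as well. The quasi-likelihood count of 0 genes past the threshold was also given by limma-voom, by the replicate block, at a threshold of 0.01, with 2 other filters and with 3 other scalings; DESeq2 called 2 genes and the likelihood ratio test 4, none of them among the 6. Leaving out a library gave 0 to 91 genes, the 91 without knockout 1 and 8 without knockout 2; the 6 genes' adjusted p was at least 0.182 in these fits. In such fits 1 arm is a single library, assumed to vary like the other group. Leaving out each library in turn, the median over the 6 genes ranged from -0.31 to -0.12. The log2 fold change ranged from -0.42 to 0.69 for Dppa2 (negative without wild type 1, at -0.40, and without knockout 2), from -3.28 to -0.52 for Dppa3, from -0.041 to 0.25 for Dppa4, from -0.58 to 0.18 for Dppa5a (0.03 without knockout 2), from -1.001 to -0.49 for Ooep and from -0.0050 to 0.41 for Tcl1. Among the other settings only Dppa2 changed sign, to -0.0052 with upper quartile scaling and -0.018 with library totals. The cause was not tested.

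Deviations from the group means of same-numbered libraries correlated at r = 0.38 across 10778 genes, but no label says what the numbers share. With the replicate block the log2 fold changes were 0.08 for Dppa2, -1.66 for Dppa3, 0.10 for Dppa4, -0.23 for Dppa5a, -0.75 for Ooep and 0.20 for Tcl1, the lowest adjusted p was 0.888, and the count of genes past the threshold stayed at 0.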
